A study of Mus musculus with 12 samples.

Results

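Nr4a2 and Nr4a3 encode nuclear receptors of the NR4A family, and these 2 of the 9607 genes with a probe set of their own were followed through every probe set that the array's annotation gives to one of them alone. A probe set is a group of short probes on an Affymetrix array that together report 1 transcript. Of 22511 probe sets on the MOE430B array without its controls, 5 met this rule: 1 for Nr4a3 (1438796_at) and 4 for Nr4a2 (1447863_s_at, 1455034_at, 1433422_at and 1433423_at). In the mouse genome (RefSeq genes of GRCm38.p6) Nr4a3 lies on chromosome 4 and Nr4a2 on chromosome 2. The third member of the family, Nr4a1, had 0 probe sets with its symbol among those analysed here.

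RNA from 4 groups of sorted thymocytes, each with 3 biological replicates and 1 array per replicate, was measured on 12 arrays. The groups were CD4 single-positive cells and double-positive cells, each from TCR:HEL and from TCR mice. All mice were of the B10 background, untreated and 6 to 8 weeks old, and by the sample titles all carried a transgenic T cell receptor. TCR:HEL mice also carried HEL, which stands for hen egg lysozyme, a model antigen. The labels name TCR:HEL single-positive cells as cells under negative selection, TCR single-positive cells as cells under positive selection, and double-positive cells as cells before selection. They do not give the promoter of the HEL transgene, the number of mice behind a replicate or the full sorting gates. The series design text calls one kind of mouse only B10, so the groups follow the titles. In such bulk samples, fewer cells of a type that expresses a gene and less RNA of it per cell cannot be told apart.

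NR4A proteins are orphan nuclear receptors: no natural ligand is needed for their activity, which follows the amount of protein made. Their genes are immediate early genes, transcribed within a short time of a signal, and in T cells the signal is engagement of the T cell receptor through calcium and protein kinase C. The factors bind DNA at a site called NBRE, and in mouse thymocytes Nr4a1 (Nur77) and Nr4a3 (Nor-1) are known for overlapping roles in the death of self-reactive cells. Nr4a2 (Nurr1) is best known from dopamine neurons and also takes part in the regulatory T cell programme.

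The 250 bases before the RefSeq start site of each gene (GRCm38.p6) are shown. The reason is that Nr4a3 and the Nr4a2 probe sets 1447863_s_at, 1455034_at and 1433423_at had their highest mean signals in the same group of cells. The last of these stayed below the array medians. Capitals mark matches to TGACG on either strand, the core of the cyclic AMP response element, and 1 match to the consensus site of MEF2, a factor known to bind the promoter of Nr4a1.
Nr4a3, chr4:48045055-48045304, plus strand: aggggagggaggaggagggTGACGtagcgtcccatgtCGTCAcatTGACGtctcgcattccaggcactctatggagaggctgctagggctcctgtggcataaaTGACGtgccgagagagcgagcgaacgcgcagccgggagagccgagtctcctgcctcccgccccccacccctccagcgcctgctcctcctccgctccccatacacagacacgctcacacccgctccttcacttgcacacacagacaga
Nr4a2, chr2:57124004-57124253, minus strand: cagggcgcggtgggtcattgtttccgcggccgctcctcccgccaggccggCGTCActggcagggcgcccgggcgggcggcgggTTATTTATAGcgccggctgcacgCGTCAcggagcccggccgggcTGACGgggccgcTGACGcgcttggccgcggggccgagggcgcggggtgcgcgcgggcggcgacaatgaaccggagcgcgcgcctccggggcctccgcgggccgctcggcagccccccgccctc

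Each promoter held 4 TGACG matches. In Nr4a3 they began 231, 213, 205 and 147 bases before the start, and in Nr4a2 200, 144, 123 and 111 bases before it. Of 32851 mouse promoter windows of the same length, 17.8% held at least 1 TGACG and 0.137% held 4 or more. The MEF2 consensus, which did not overlap a TGACG there, had 1 match in Nr4a2, 167 to 158 bases before the start, 0 in Nr4a3, and at least 1 in 2.92% of all windows. The full element TGACGTCA, which would hold TGACG on both strands, the NBRE AAAGGTCA and the AP-1 site TGANTCA had 0 matches in both windows, on both strands, against 1.55%, 1.34% and 6.75% of all windows. The NFAT core GGAAA, present in 55.6% of windows, had 1 match in Nr4a2 and 0 in Nr4a3. GC content was 63.6% for Nr4a3 and 80% for Nr4a2, and 80% and 98.8% of windows had a lower one. These matches describe letters only, and binding was not measured.

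Nr4a3 was high in single-positive cells and highest where the antigen was present. Its MAS5 signals, intensity values on a linear scale, were 6865, 4549 and 3315 in TCR:HEL single-positive replicates 1, 2 and 3. They were 1142, 865 and 1284 in TCR single-positive cells, 142, 43.3 and 38.6 in TCR:HEL double-positive cells, and 23.9, 20.7 and 76.5 in TCR double-positive cells. The lowest TCR:HEL single-positive array thus lay above the highest TCR single-positive array, and every single-positive array above every double-positive one, while the double-positive groups overlapped. Set among all probe sets on the same array, Nr4a3 stood at the 99.6th to 99.9th percentile in TCR:HEL and the 95.3rd to 97.4th in TCR single-positive cells. In double-positive cells it stood at the 36.2nd to 72.0th percentile in TCR:HEL and the 22.9th to 55.6th in TCR mice, and it passed the array's median signal on 1 of 3 arrays of each group. Array medians were 62.9 to 81.3, and no detection calls were used, so that a signal near them cannot be told from absence.

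**Figure D1:**
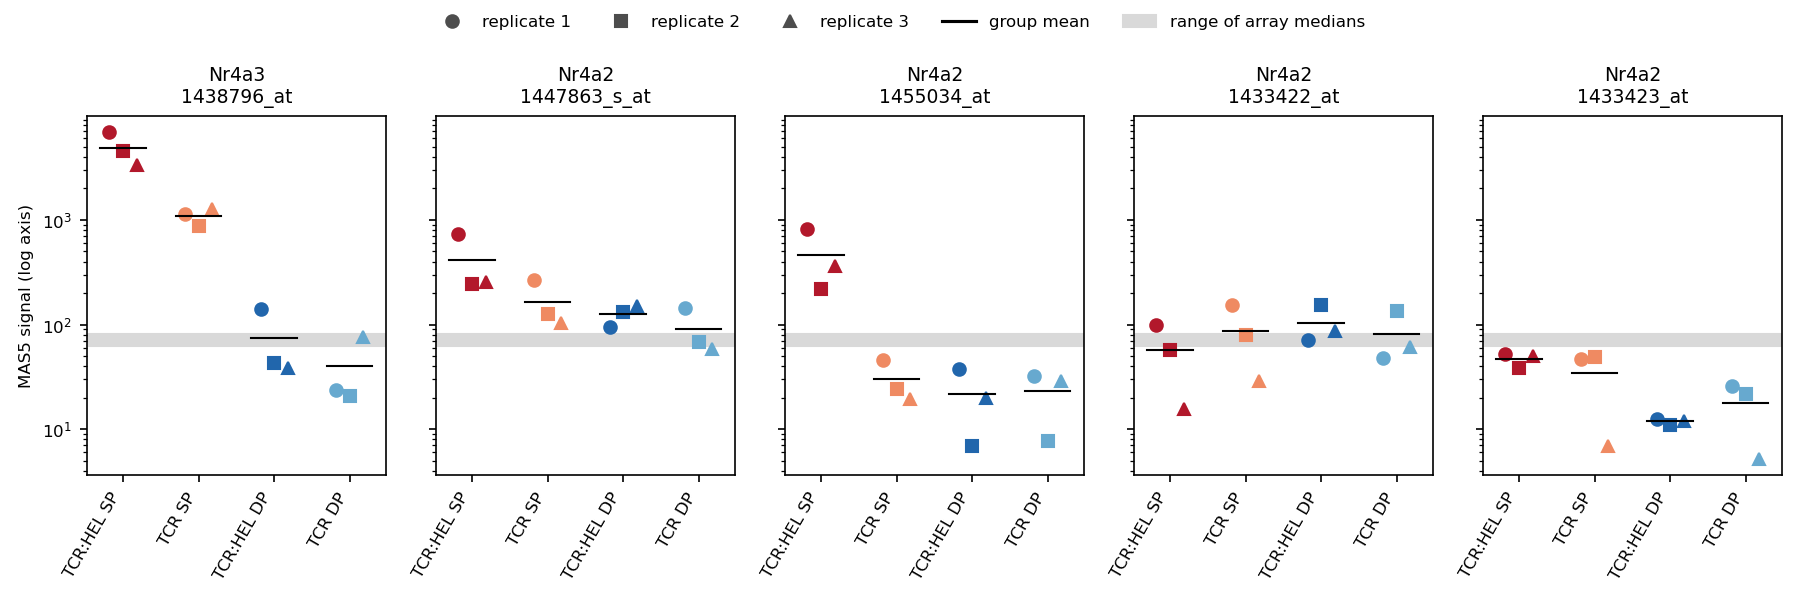
MAS5 signal (log axis) of the 5 probe sets on each of 12 arrays, by group (SP, single-positive; DP, double-positive), with the group mean as a line and the range of array medians as a grey band. Nr4a3 and Nr4a2 1455034_at stand apart in TCR:HEL single-positive cells. Signals of 1433422_at scatter around the band, up to 155, and 1433423_at stays below it.

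The 4 probe sets of Nr4a2 did not give 1 pattern. Single-positive replicates had 1455034_at signals of 815, 219 and 365 in TCR:HEL mice, against 46.0, 24.2 and 19.5 in TCR mice. In double-positive cells they were 38.0, 6.99 and 19.9 in TCR:HEL mice and 32.4, 7.72 and 28.9 in TCR mice. All 3 TCR:HEL single-positive arrays were thus far above the other 9, which were all below their array's median and overlapped one another. This probe set was kept by the filter on low signal (above the array median on at least 3 arrays) only through the 3 arrays on which it is high, and it could not have been kept without that difference.

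In single-positive cells, 1447863_s_at had signals of 735, 245 and 257 in TCR:HEL mice, against 266, 125 and 103 in TCR mice. Its double-positive signals were 94.9, 131 and 151 in TCR:HEL mice, against 143, 67.6 and 58.5 in TCR mice. The ending _s_at marks probes that can match more than 1 transcript. Its group means fell in the order of single-positive cells of TCR:HEL (412) and of TCR mice (165), then double-positive cells of TCR:HEL (126) and of TCR mice (89.8), and each group overlapped its neighbour in that order. Replicate 1 was the highest array in both single-positive groups.

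Of the other 2 probe sets, 1433422_at passed the array median on 7 of 12 arrays, with a highest signal of 155. For 1433422_at, means were 57.4 ± 41.8 in TCR:HEL and 87.1 ± 62.2 in TCR single-positive cells, and 104 ± 44.5 in TCR:HEL and 81.6 ± 47.3 in TCR double-positive cells (SD, n = 3 each), and all groups overlapped. For 1433423_at, the signal was below the array median on all 12 arrays, the probe set did not pass the filter, and it was not tested in the filtered fit. Its signals were 38.6 to 52.1 in TCR:HEL single-positive cells, against 11.1 to 12.6 in TCR:HEL double-positive cells, and 6.98 to 49.3 in TCR single-positive cells, against 5.20 to 25.9 in TCR double-positive cells. With no filter, 1433423_at differed by 1.17 between stages in TCR:HEL mice (limma adjusted p = 0.275). Between the single-positive groups it then differed by 0.46 (limma adjusted p = 0.9085), and it passed in no comparison. In all, 4 of the 5 probe sets passed the filter and were tested in the filtered fit.

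Across the 12 arrays, log2 signals of 1455034_at and 1447863_s_at had a Pearson r of 0.84 with each other, and of 0.80 and 0.72 with Nr4a3. Those of 1433422_at had r values of -0.34 with 1455034_at, 0.01 with 1447863_s_at and -0.34 with Nr4a3. The arrays fall into stages and groups, which these values share. With each group's mean removed, r was 0.63 between 1455034_at and 1447863_s_at, 0.57 between 1455034_at and Nr4a3, and -0.05 between 1447863_s_at and Nr4a3. So computed, it was also 0.51 between 1447863_s_at and each of 1433422_at and 1433423_at. It was 0.47 between 1433422_at and 1433423_at, and 0.05 and 0.23 between them and 1455034_at. The low probe set 1433423_at had r values of 0.64 with Nr4a3, 0.73 with 1447863_s_at and 0.65 with 1455034_at over the 12 arrays. Its r with Nr4a3 was -0.40 once each group's mean was removed.

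Single-positive cells with and without HEL were set against each other to see how cells under negative selection differ from cells under positive selection. Nr4a3 had a mean signal of 4910 ± 1802 in TCR:HEL cells and 1097 ± 213 in TCR cells (SD, n = 3 each). On the log2(signal + 16) scale, which understates changes of low signals and is used for all differences here, this was 2.10 ± 0.44 (SE, 95% interval 1.17 to 3.03), with a limma adjusted p of 0.0708, above the threshold of 0.05. Groups did not overlap with TCR:HEL higher in 5.74% of the 13703 probe sets tested, and 23 probe sets had a higher fold change. Same-numbered single-positive arrays had correlations of deviations from the group mean of 0.159, 0.204 and 0.188 for replicates 1, 2 and 3. Those of replicate 2 were hybridized on different days, so the numbers need not mark pairs. With the replicate number as a block over all arrays, the difference was again 2.10, at a limma adjusted p of 0.0484, past the threshold. That block also paired double-positive arrays, whose correlations between TCR:HEL and TCR mice were -0.077, 0.124 and -0.0911. Over 24 alternative settings, the block included, the difference ran from 1.83 to 2.35 and its limma adjusted p from 0.0105 to 0.505, and 5 settings put it past the threshold.

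Of the Nr4a2 probe sets, 1455034_at alone passed the test, in a comparison where limma called 0.146% of all probe sets higher and 0.073% lower. Mean signals were 467 ± 311 in TCR:HEL and 29.9 ± 14.1 in TCR cells (SD, n = 3 each), a log2 difference of 3.24 ± 0.51 (95% interval 2.16 to 4.32, adjusted p = 0.0132 by limma). Since it passed the filter only through the TCR:HEL single-positive arrays, it had to differ to be tested at all, and with no filter its limma adjusted p was 0.0208. The TCR signals lay below the array medians, so that the size depends on the added 16 (2.35 with 64 and 3.80 with 1). The call was lost without TCR:HEL replicate 1 (2.75, adjusted p = 0.108), TCR:HEL replicate 3 (adjusted p = 0.0619) or TCR replicate 3 (adjusted p = 0.0574), and without the arrays of the first hybridization period (2.99, adjusted p = 0.141). A pseudocount of 1 also ended it (adjusted p = 0.0693), and over all settings that held it adjusted p ran from 0.00197 to 0.141. The difference on 1447863_s_at was 1.16 ± 0.44 (95% interval 0.23 to 2.10, adjusted p = 0.560) and that on 1433422_at -0.48 ± 0.55 (95% interval -1.64 to 0.68, adjusted p = 0.926), neither past the threshold. With the kept probe sets of Nr4a2 averaged, the gene's difference was 1.31 ± 0.39 (adjusted p = 0.232).

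**Figure D2:**
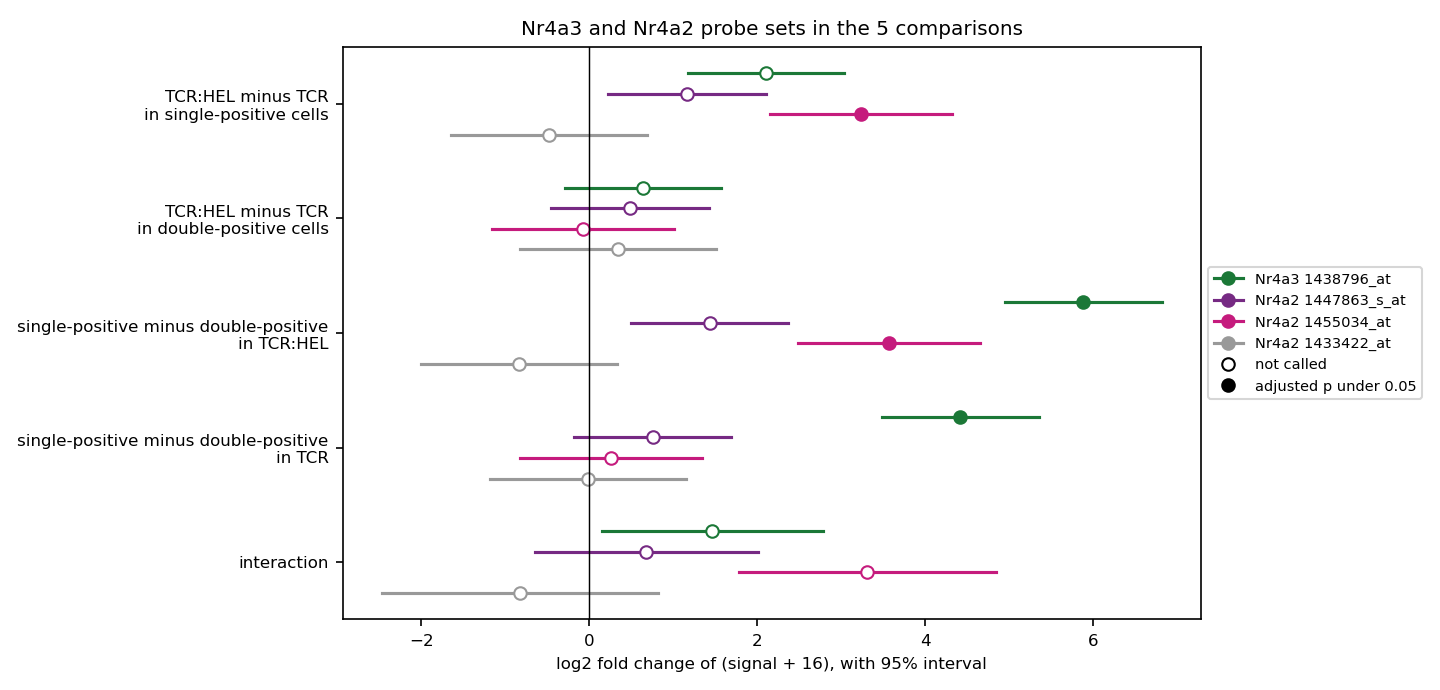
Log2 fold change of (signal + 16) with its 95% interval for the 4 tested probe sets in the 5 comparisons. Filled points passed an adjusted p of 0.05: Nr4a3 in both stage comparisons, and Nr4a2 1455034_at between the single-positive groups and between stages in TCR:HEL mice.

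The 12 arrays were hybridized on 8 days that fall into 3 periods, and 2 pairs of single-positive arrays shared a day. Period was partly tied to stage: the first held only single-positive arrays, and all TCR double-positive arrays were in the second. In the pair of replicates 1, Nr4a3 was 2.57 higher in TCR:HEL than in TCR cells on the log2 scale, 1455034_at 3.75 higher and 1447863_s_at 1.41 higher. In the pair of replicates 3, these differences were 1.36, 3.42 and 1.20. Both pairs thus had the direction of the group means on these 3 probe sets, while 1433422_at was lower in both (-0.55 and -0.51). Within the third period, with 2 TCR:HEL arrays and 1 TCR array, the differences were 1.59 for Nr4a3, 3.07 for 1455034_at, 1.16 for 1447863_s_at and 0.09 for 1433422_at.

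TCR:HEL single-positive replicate 1 had the highest signal of its group on each of the 5 probe sets. Its Gapdh 5' to 3' signal ratio, which is low in degraded or strongly amplified RNA, was 0.0856, against 0.443 and 0.212 in replicates 2 and 3. TCR single-positive replicate 1, hybridized on the same day, had the lowest ratio of all (0.0379, against 0.310 and 0.281). TCR double-positive replicate 1 also had a low ratio, 0.107. Without TCR:HEL replicate 1, the difference was 1.83 for Nr4a3 and 0.67 for 1447863_s_at, and the part of RNA quality in the values with all arrays was not tested.

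Markers of the sorted stages and of other cells were followed beside the NR4A genes. Cd8a, the coreceptor gene that defines the double-positive stage with Cd4, averaged 1118 in TCR:HEL and 651 in TCR single-positive cells, and 5612 in TCR:HEL and 7311 in TCR double-positive cells. Arpp21, the other double-positive marker measured of 10, averaged 102 in TCR:HEL and 24.5 in TCR single-positive cells (1.71, limma adjusted p = 0.151), and the sums of both markers were 924 to 1632 in TCR:HEL and 566 to 734 in TCR single-positive cells, without overlap. Of 9 markers of mature CD4 single-positive cells Gimap7 alone was measured, with means of 205 in TCR:HEL and 673 in TCR single-positive cells (-1.62, limma adjusted p = 0.0602) and ranges of 202 to 208 and 569 to 862. Cd8a (0.73, limma adjusted p = 0.536), Arpp21 and Gimap7 did not pass between the single-positive groups that the NR4A values compare. Their means were higher in TCR:HEL for Cd8a and Arpp21 and lower for Gimap7. Over all probe sets, groups did not overlap in 5.74% with TCR:HEL higher and in 4.89% with it lower. Of 6 CD8 single-positive markers, Cd8a among them, 4 were measured. Their sums overlapped, at 1698 to 2950 in TCR:HEL and 1546 to 2534 in TCR single-positive cells, but joined genes of both directions. Beside Cd8a, Itgae averaged 403 in TCR:HEL and 171 in TCR cells (1.15, limma adjusted p = 0.268). Il18rap averaged 94.1 in TCR:HEL and 55.0 in TCR cells, and Runx3, the other way, 744 and 1058, and neither passed. Cd4 and Foxp3, the defining factor of regulatory T cells, were not measured here. Cd8a was thus lower in both single-positive groups than in either double-positive group. Of 8 regulatory T cell markers 4 were measured, and their summed signal was 7062 to 8563 in TCR:HEL single-positive cells, against 2619 to 3424 in TCR single-positive cells. Of these, Ikzf2 rose (2.40, limma adjusted p = 0.000565), while Ikzf4 (0.12), Gpr83 (-0.55) and Nrp1 (0.16) did not pass. Ikzf2 made up most of the TCR:HEL sums, with means of 6197 in TCR:HEL and 1168 in TCR single-positive cells. Ikzf4 averaged 749 in TCR:HEL and 704 in TCR cells, Nrp1 203 and 182, and Gpr83, the other way, 670 and 1087. The difference of the sums thus came from Ikzf2. Of 10 B cell markers 4 were measured, with sums of 378 to 630 in TCR:HEL and 298 to 481 in TCR single-positive cells. Of 10 markers of thymic epithelium and stroma 4 were measured, with sums of 1308 to 1859 in TCR:HEL and 2249 to 4008 in TCR single-positive cells. Epcam made up most of these sums, with means of 1213 in TCR:HEL and 2749 in TCR cells (-1.15, limma adjusted p = 0.598). Ccl25 averaged 186 in TCR:HEL and 191 in TCR cells, and Dcn 76.7 and 117. Foxn1 did not pass the filter (34.2 and 39.3). Dendritic cell and macrophage markers (1 of 12 measured) and those of NK, NKT and gamma-delta T cells (1 of 8) had overlapping ranges between the single-positive groups. Their part in the NR4A values was not tested.

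Double-positive cells with and without HEL were set against each other to see whether a difference was present before selection. Nr4a3 averaged 74.5 ± 58.2 in TCR:HEL and 40.4 ± 31.3 in TCR cells (SD, n = 3 each), with a log2 difference of 0.64 ± 0.44 (95% interval -0.29 to 1.57, limma adjusted p = 1.00). Single arrays moved it: it was 0.15 without TCR:HEL replicate 1, 0.39 without TCR replicate 2 and 1.06 without TCR replicate 3. Nr4a2 had 0.49 ± 0.44 on 1447863_s_at, -0.07 ± 0.51 on 1455034_at and 0.34 ± 0.55 on 1433422_at, and their intervals all included 0. Groups overlapped on all 4 tested probe sets, while in all 3.75% of probe sets had non-overlapping groups with TCR:HEL higher and 3.92% with it lower. Limma called 0% of probe sets in this comparison, where 339 of 13703 had an unadjusted p under 0.05, and it called 0 under each of 23 alternative settings. In the pair of double-positive arrays of 1 day (replicates 2), Nr4a3 had a signal of 43.3 in TCR:HEL and 20.7 in TCR cells.

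Whether the antigen's effect differed between stages was tested as an interaction, the single-positive difference minus the double-positive one. It was 3.31 ± 0.72 for 1455034_at (95% interval 1.78 to 4.84, limma adjusted p = 0.380), again for a probe set kept only through the TCR:HEL single-positive arrays. For Nr4a3 it was 1.46 ± 0.62 (95% interval 0.15 to 2.78, adjusted p = 0.998), for 1447863_s_at 0.68 ± 0.62 and for 1433422_at -0.82 ± 0.77. None of the 4 passed, and limma called 0.0073% of probe sets. A difference of the antigen's effect between stages was therefore not shown for either gene.

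Single-positive cells were compared with double-positive cells in each kind of mouse to follow the change of stage, and Nr4a3 rose in both. In TCR:HEL mice its difference was 5.88 ± 0.44 (95% interval 4.95 to 6.81, limma adjusted p = 1.19e-05). No other probe set of the 13703 tested had a higher fold change or a smaller p in that comparison, in which 0.876% of probe sets were called higher. In TCR mice the difference was 4.42 ± 0.44 (95% interval 3.49 to 5.35, limma adjusted p = 3.63e-05), again with 0 probe sets of higher fold change, where 1.12% were called higher. Nr4a3 groups did not overlap in either kind of mouse, as in 9.77% of probe sets in TCR:HEL and 8.2% in TCR mice with single-positive higher. Within 1 period, the differences were 6.16 in TCR:HEL mice (2 arrays against 1) and 4.10 in TCR mice (1 against 3). It passed under all 24 alternatives in both, from 5.18 to 6.37 in TCR:HEL and from 3.50 to 4.96 in TCR mice. Because double-positive signals lay near or below the array medians, the size depends on the added 16, and the lowest value in each kind of mouse came with 64 in its place. The 2 stage comparisons and the 2 antigen comparisons share arrays, so their values are not independent of one another.

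For Nr4a2, 1455034_at passed the test between stages in TCR:HEL mice, at 3.57 ± 0.51 (95% interval 2.49 to 4.65, adjusted p = 0.00142 by limma, and 0.00264 with no filter). The same limit holds here: it was kept only through the TCR:HEL single-positive arrays, and all double-positive signals lay below the array medians, so that the size ran from 2.49 with 64 added to 4.43 with 1. In TCR mice the same probe set had 0.26 ± 0.51 (95% interval -0.82 to 1.34, adjusted p = 0.892). On 1447863_s_at the differences were 1.43 ± 0.44 in TCR:HEL (adjusted p = 0.133) and 0.75 ± 0.44 in TCR mice (adjusted p = 0.499). The TCR:HEL difference was 0.94 without TCR:HEL single-positive replicate 1. The TCR difference was 0.38 without TCR single-positive replicate 1, and 0.28 once the period of hybridization was blocked. The TCR:HEL groups of that probe set did not overlap either. Probe set 1433422_at had -0.84 ± 0.55 in TCR:HEL and -0.01 ± 0.55 in TCR mice. The stage call of 1455034_at in TCR:HEL mice was kept under the 22 alternatives that gave a value. In TCR:HEL single-positive replicate 2 and double-positive replicate 3, hybridized on the same day, signals were 4549 and 38.6 for Nr4a3 and 219 and 19.9 for 1455034_at.

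**Figure D3:**
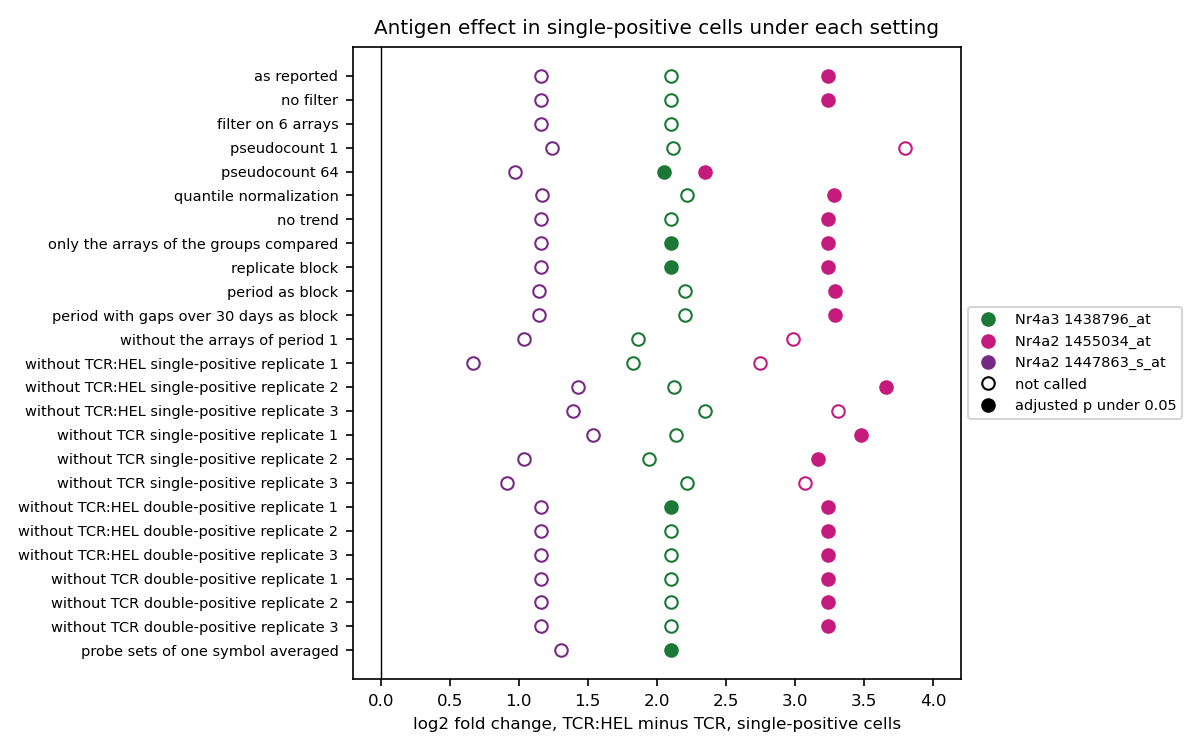
Log2 fold change between TCR:HEL and TCR single-positive cells for Nr4a3 and 2 Nr4a2 probe sets, as reported and under each alternative setting (with probe sets averaged, the Nr4a2 point is the mean of 3). Every value drawn is above 0. Nr4a2 1433422_at, which is not drawn, had -0.48 as reported and -0.98 to 0.030 under the alternatives. Filled points passed an adjusted p of 0.05, which depended on the setting for Nr4a3 and 1455034_at.

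Genes whose signals over the 12 arrays were most like those of Nr4a3 were found among 9315 probe sets with 1 gene symbol. They were Rora, a nuclear receptor of another family (Pearson r = 0.97), Lmna, which encodes lamins A and C of the nuclear envelope (0.96), Chl1, a cell adhesion gene (0.95), Mapkapk3, a kinase gene downstream of p38 (0.94), and St8sia6, a sialyltransferase gene (0.94). Mean signals of Rora were 1037 in TCR:HEL and 375 in TCR single-positive cells, against 76.8 in TCR:HEL and 68.7 in TCR double-positive cells. Those of Lmna were 487 in TCR:HEL and 158 in TCR single-positive cells, against 37.0 in TCR:HEL and 17.3 in TCR double-positive cells. The group means of Rora and Lmna had the order that those of Nr4a3 had. Those of Chl1, Mapkapk3 and St8sia6 did not in double-positive cells, at 216, 520.5 and 92.2 in TCR:HEL mice, against 219, 549 and 101 in TCR mice. All 5 genes were picked for this likeness.

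Most like Nr4a2, on 1447863_s_at, were Dusp5, a phosphatase gene that acts on ERK (0.93), Gpr183, which encodes a receptor for oxysterols (0.91), 4933406C10Rik (0.89), Ttc28 (0.88) and Stx11, a syntaxin gene (0.88). Mean signals of Dusp5 were 1075 in TCR:HEL and 477 in TCR single-positive cells, and 355 in TCR:HEL and 303 in TCR double-positive cells. The r values rest on 12 arrays that share stage and group, and they were not tested.

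**Figure D4:**
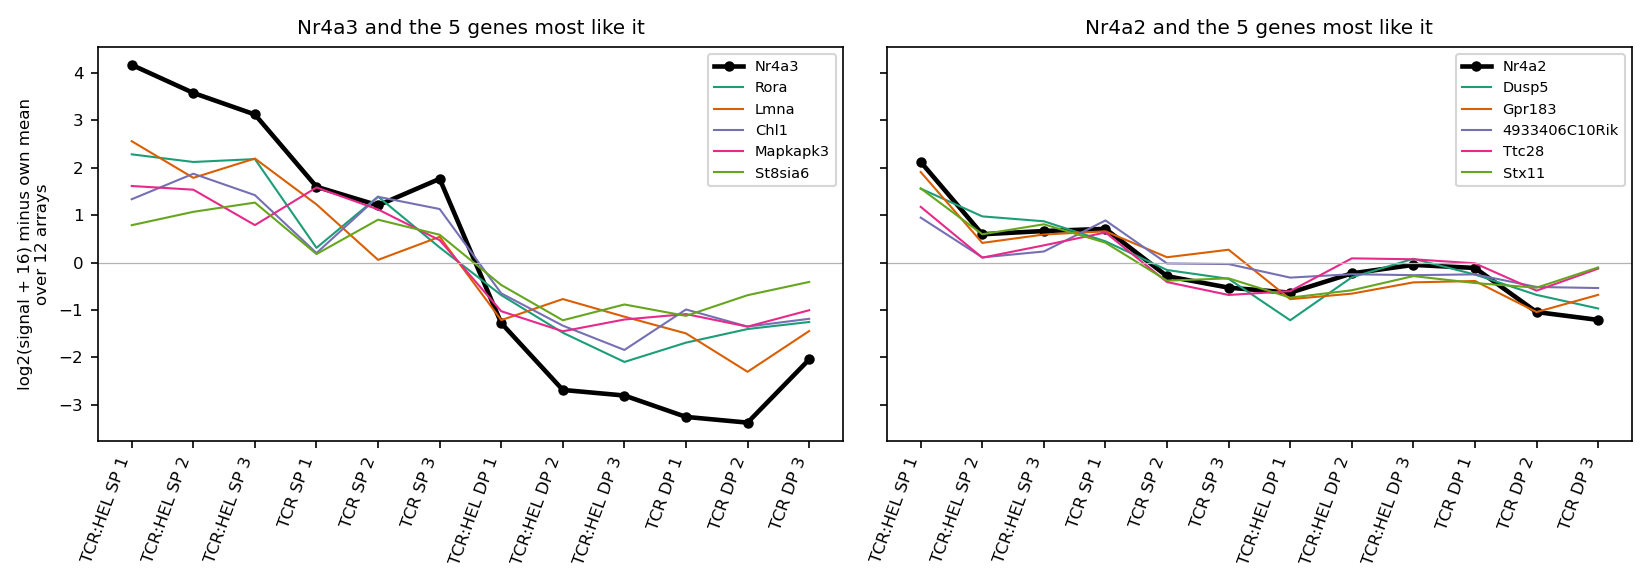
Log2(signal + 16) minus each gene's own mean over the 12 arrays for Nr4a3 and Nr4a2 (black) and the 5 genes most like each, with lines only joining the points of a gene (SP, single-positive; DP, double-positive). For Nr4a3 and its 5 genes, all single-positive arrays lie above the mean and all double-positive arrays below it.

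Genes around the NR4A factors were read from lists, of which the array held a part. Of 39 other transcription factors known to respond to the T cell receptor 11 were measured, and between the single-positive groups Ikzf2, which encodes Helios, rose, 0 fell and 10 did not pass, where 0.146% of all probe sets were called higher and 0.073% lower. Their median difference was 0.26, against 0.01 over all probe sets. Fosl2, an AP-1 gene, had mean signals of 414 in TCR:HEL and 106 in TCR cells and a difference of 1.91 ± 0.50 (limma adjusted p = 0.221), and Nfkbid, an NF-kB regulator gene, had 1.09 ± 0.39 (limma adjusted p = 0.525). With the change of stage in TCR:HEL mice, where 0.876% of all probe sets were called higher and 1.1% lower, 5 of the 11 rose: Fosl2 (3.87), Nfkbid (3.18), Egr3 (2.86), Bach2 (2.79) and Ikzf2 (1.30). In TCR mice, where 1.12% were called higher and 2.42% lower, Bach2 (3.21), Egr3 (2.30) and Nfkbid (2.12) rose, Tox2 fell (-2.62) and 7 did not pass. The stage call of Ikzf2 in TCR:HEL mice was lost under 5 of 24 settings, and that of Egr3 in TCR mice under 1 (limma adjusted p = 0.0920 with periods parted by over 30 days as a block).

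Of 60 genes upstream of Nr4a transcription, from calcium and protein kinase C to MEF2, 30 were measured, and 0 passed in either direction in any of the 5 comparisons. Over all probe sets, limma called 0.219% between the single-positive groups, 0% between the double-positive groups and 0.0073% for the interaction. With the change of stage it called 1.98% in TCR:HEL and 3.53% in TCR mice. Such low shares leave few calls to be found among 30 genes. The median difference of the 30 genes between the single-positive groups was -0.12, against 0.01 over all probe sets. The smallest p-values belonged to the kinase genes Prkce (-0.76 ± 0.28), Camk2d (1.31 ± 0.51) and Braf (0.54 ± 0.24), with limma adjusted p of 0.537 or more.

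Of 40 feedback regulators and surface genes 11 were measured, and between the single-positive groups Dusp4, another MAP kinase phosphatase gene, rose (2.82 ± 0.29, limma adjusted p = 0.000565) and 10 did not pass (0.146% of all probe sets called higher, 0.073% lower), with a median of -0.03. The early activation gene Cd69 had 1.19 ± 0.35 and Dusp5 1.15 ± 0.35, with limma adjusted p of 0.306 and 0.356. With the change of stage in TCR:HEL mice Icos (2.74), Cd69 (2.52), Btla (2.02) and Dusp5 (1.62) rose and 7 did not pass (0.876% of all called higher, 1.1% lower), and the call of Dusp5 was lost under 8 of 24 settings. In TCR mice Icos (2.31) and Btla (1.44) rose, Dusp4 fell (-1.39) and 8 did not pass (1.12% of all called higher, 2.42% lower), and the calls of Btla and Dusp4 were lost under 2 and 5 of 24 settings.

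Of 46 other nuclear receptor genes 14 were measured, and 0 passed between the single-positive groups (0.146% of all called higher, 0.073% lower). Their median was 0.04, against 0.01 over all probe sets. Rora had the smallest p, at 1.52 ± 0.36 (limma adjusted p = 0.142), and passed with the hybridization period as a block (1.88, limma adjusted p = 0.0111). Next by p were Nr2c2 (-0.53 ± 0.31) and Pgr (0.51 ± 0.38), with limma adjusted p of 0.7865 and 0.8535. Rora rose with the change of stage, by 3.62 in TCR:HEL and 2.12 in TCR mice, and the other 13 did not pass in either. Of all probe sets, 0.876% were called higher and 1.1% lower in TCR:HEL mice, and 1.12% and 2.42% in TCR mice. Of 26 apoptosis and regulatory T cell genes tied to NR4A factors 10 were measured, and between the single-positive groups Ikzf2 rose and 9 did not pass (0.146% of all called higher, 0.073% lower), with a median of -0.05. Among these, Tox2 had 1.15 ± 0.42 and Runx1 -1.38 ± 0.59. With the change of stage 3 rose and 1 fell in TCR:HEL mice (0.876% of all called higher, 1.1% lower), and 2 rose and 2 fell in TCR mice (1.12% higher, 2.42% lower). Ikzf4, which encodes Eos, rose by 2.77 in TCR:HEL and 2.39 in TCR mice, and Gpr83 by 2.00 in TCR:HEL and 2.56 in TCR mice. Ikzf2 rose in TCR:HEL mice (1.30) and Tox2 fell in TCR mice (-2.62). Nrp1 fell (-1.62 in TCR:HEL and -1.46 in TCR mice), a call lost under 2 and 3 of 24 settings.

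**Figure D5:**
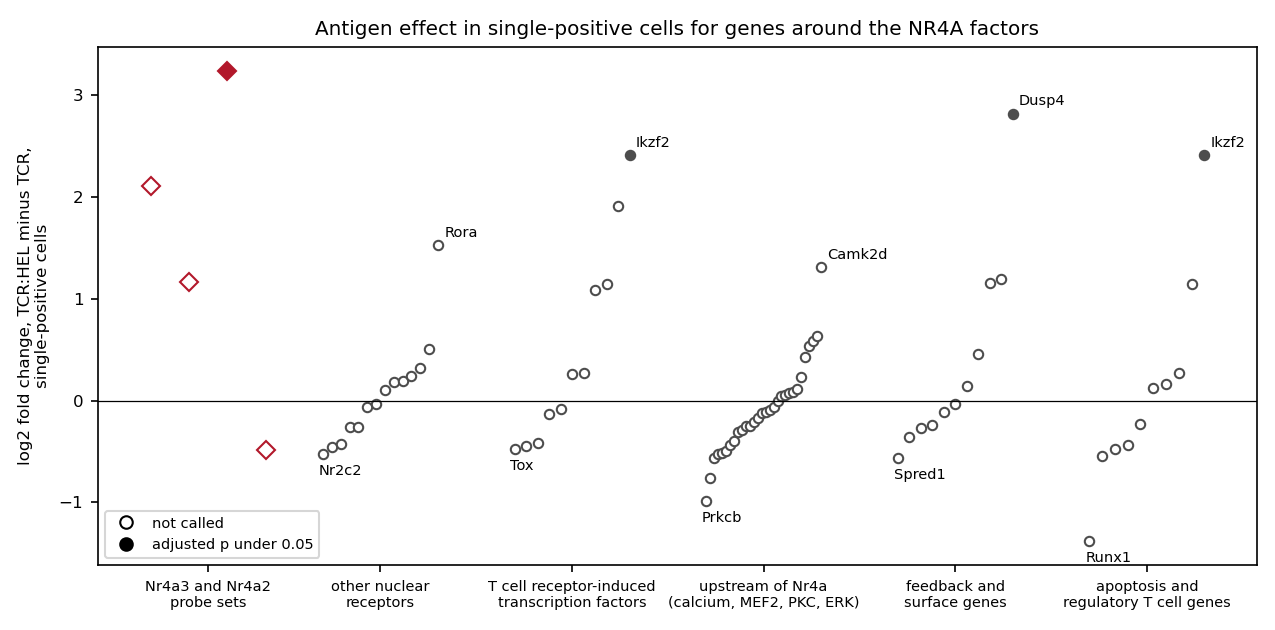
Log2 fold change between TCR:HEL and TCR single-positive cells for the 4 tested probe sets of Nr4a3 and Nr4a2 (diamonds) and the measured genes of 5 lists (circles), in order of size within each list. Filled symbols passed an adjusted p of 0.05: Nr4a2 1455034_at, Ikzf2 (in 2 lists) and Dusp4.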

How the data were processed

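The deposited table holds MAS5 signals, intensity values on a linear scale; the submitters' processing notes name MAS5 without settings. Trimmed means were 150.02 to 150.04 on all arrays, and values were used as scaled. Per the labels, total RNA came from 100000 to 1000000 sorted cells and was amplified for small samples, with biotin as the label. The authors' deposited hybridization records gave 1 chip lot and the days. For this report the days were grouped into 3 periods parted by gaps of over 35 days. Gaps of over 30 days gave 4 periods, used as an alternative.

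The 64 control probe sets were left out, and 13703 of the other 22511 were kept, those with a signal over the median of the array on 3 or more arrays. Symbols came from the platform annotation, updated through RefSeq genes. Log2(signal + 16) was fitted with limma 3.58.1 in R 4.3.3 as 4 group means over 12 arrays, with empirical Bayes moderation and a trend. Tests were two-sided, with Benjamini-Hochberg adjustment over all probe sets within each comparison. The fit was tested on simulated data. Precision is limited by 3 arrays per group. The members and gene lists were chosen with earlier results of these data known. Lists used 1 probe set per gene, that with the highest mean, and the 3 members with the smallest p between single-positive groups were named, with the 5 genes most like each NR4A gene by Pearson r. Members called with the change of stage and measured regulatory T cell markers were named after their values were seen. Same-numbered arrays were checked as pairs by correlating deviations from group means: all 3 correlations were above 0.1 between the single-positive groups, while in each other comparison at least 1 was below it (-0.077, 0.0921, 0.048). Alternatives changed the filter, pseudocount, normalization, trend, arrays, block and averaging of probe sets.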

Additional observations from a re-analysis of the deposited data

How the results depend on the processing

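The Nr4a3 difference between TCR:HEL and TCR single-positive cells passed with a pseudocount of 64 (2.05), and at 2.10 with only the arrays of the groups compared, the replicate block or averaged probe sets, against 2.10 and no call as reported. Leaving out 1 array gave 1.83 to 2.35, and it passed without TCR:HEL double-positive replicate 1. On 1455034_at the call was lost with a pseudocount of 1 (3.80) and without period 1 (2.99), and leaving out 1 array gave 2.75 to 3.66. A filter on 6 arrays left 1455034_at out. Small differences changed sign, with ranges that cover leaving out 1 array only: 1433422_at between single-positive groups (0.030 without TCR:HEL replicate 3, range -0.98 to 0.030), 1455034_at between double-positive groups (0.17 with 30-day periods as a block, 0.24, 0.12 and 0.065 without TCR:HEL replicate 2, TCR replicate 1 or TCR replicate 3, range -0.40 to 0.24), 1455034_at with stage in TCR mice (-0.013 with the period block, -0.065 without TCR double-positive replicate 2, range -0.065 to 0.45, and 0.49 with a pseudocount of 1) and 1433422_at with stage in TCR mice (0.016 with a pseudocount of 64, 0.48 and 0.36 without TCR single-positive replicate 3 or double-positive replicate 2, range -0.47 to 0.48). Other differences that did not pass kept their sign but moved when 1 array was left out, such as 1447863_s_at (0.27 to 0.82) and 1433422_at (0.058 to 0.71) between double-positive groups and 1433422_at with stage in TCR:HEL mice (-1.26 to -0.33). Calls between single-positive groups, 30 as reported, numbered 47 with the replicate block, 16 without period 1 and 13 to 35 without 1 array. Stage calls in TCR:HEL mice, 271 as reported, numbered 118 to 324 without 1 array. Those in TCR mice, 484 as reported, numbered 303 with only the groups compared, 313 and 240 with the period blocks, and 293 to 467 without 1 array. The interaction, with 1 call, had 0 without a filter, with the 6-array filter, a pseudocount of 1, quantile normalization, the replicate block, the period block or without period 1, 4 with a pseudocount of 64, and 0 to 1 without 1 array. The replicate block changed no other call of the 4 probe sets. The cause of these changes was not tested. Where arrays were left out, the fit also held fewer arrays, and the part of this was not tested either. Signals near the array medians limit what low probe sets can show.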
